A study of Mus musculus with 15 samples.

Results

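The genes described are those of 8 proteins of the nuclear envelope: the lamins Lmna, Lmnb1 and Lmnb2, the inner nuclear membrane proteins Lbr, Emd and Tmpo, and the SUN-domain proteins Sun1 and Sun2. They were found by matching the Ensembl identifiers of a raw count table to gene symbols, and they are 8 of its 49585 genes. The set was drawn up because Lmna had been noted as lower in all 3 inhibitor groups than in 2iLif, so the values of each inhibitor group against 2iLif chose the set and are given as a description without a test. Poly(A)-selected RNA was sequenced from wild-type E14 mouse embryonic stem (ES) cells, an established line, embedded in growth factor reduced Matrigel, a basement membrane gel. The 15 libraries fall into 5 culture groups of 3: PD032+ Aurka inh, Aurka inh, PD032, FGF2/Activin and 2iLif. The FGF2/Activin group is so named by its sample titles, while its descriptions, the count columns and the treatment text say FAK, which they do not spell out. All cells had been maintained beforehand in 2i/Lif, a medium with PD0325901 (an inhibitor of the kinase MEK), CHIR99021 (an inhibitor of the kinase GSK3) and the cytokine Lif, and were then given N2B27 medium with the agents named. "Aurka inh" is taken as an inhibitor of the mitotic kinase Aurora A, and the sources used here name neither its compound nor the doses and times in the gel. The libraries are of 1 cell line, and nothing says that replicates came from separate cultures, so each p-value is set against a spread between libraries that may be technical.

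The nuclear lamina is a meshwork of intermediate filament proteins lining the inner nuclear membrane. Lmna encodes lamins A and C, which are linked to nuclear stiffness and accumulate as cells differentiate, whereas the B-type lamins keep a farnesyl anchor in the membrane and are made in nearly all cells. The lamin B receptor and the LEM-domain proteins emerin and LAP2 hold chromatin and lamina to the membrane, and SUN proteins cross the envelope with nesprins to connect the lamina to the cytoskeleton. In mitosis, kinases phosphorylate lamins and envelope proteins and the lamina comes apart.

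The libraries held 15199507 to 24202544 counts in genes, with 15199507 to 15818758 in 2iLif and 15234243 to 15703321 in FGF2/Activin. After the filter on low counts 15223 genes were tested, and all 8 envelope genes passed it. The inhibitor libraries and the other 6 libraries carry file names of different styles, so each comparison across these styles may hold a batch difference that cannot be told apart from the culture. The spread between replicates, as a biological coefficient of variation, was 8.90% in PD032+ Aurka inh, 11.1% in Aurka inh, 9.32% in PD032, 1.77% in FGF2/Activin and 4.52% in 2iLif. All 10 ES cell markers were at 1 CPM (CPM is a gene's counts as a rate of its library's total, on the usual scale and after TMM scaling) or more in each group. Their summed level was 3690 to 4040 CPM in PD032+ Aurka inh, 2790 to 3320 in Aurka inh, 2780 to 3120 in PD032, 2950 to 3000 in FGF2/Activin and 5080 to 5330 in 2iLif.

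Lmna, Sun1 and Sun2 had the widest ranges over the 5 groups, and the promoters of these 3 genes are shown because the results turn on them. Each window holds 250 bases before and 50 after a RefSeq transcription start (GRCm38.p6), read 5′ to 3′ on the strand of the gene. Of the 8 genes, 7 had a window, and Lmna and Sun1 each had a second start further inside the gene, whose window is not shown. Capitals mark 3 motifs, each searched on both strands, so that the reverse complement of its letters also counts. The AP-1 motif, a binding motif of Jun and Fos factors, was searched as TGACTCA. The motif bound by the factor NF-Y was searched as CCAAT, the letters it is named for. The GC box, a motif of Sp factors, was searched as GGGCGG. Adjoining motifs run on into one another, and GC boxes may overlap.
Lmna, chr3:88503303-88503602, minus strand: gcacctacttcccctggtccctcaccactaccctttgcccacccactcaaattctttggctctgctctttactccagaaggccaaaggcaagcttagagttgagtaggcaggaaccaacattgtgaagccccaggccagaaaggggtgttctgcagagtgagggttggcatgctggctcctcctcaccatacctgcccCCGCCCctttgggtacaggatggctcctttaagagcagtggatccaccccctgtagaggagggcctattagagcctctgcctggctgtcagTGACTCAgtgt
Sun1, chr5:139200387-139200686, plus strand: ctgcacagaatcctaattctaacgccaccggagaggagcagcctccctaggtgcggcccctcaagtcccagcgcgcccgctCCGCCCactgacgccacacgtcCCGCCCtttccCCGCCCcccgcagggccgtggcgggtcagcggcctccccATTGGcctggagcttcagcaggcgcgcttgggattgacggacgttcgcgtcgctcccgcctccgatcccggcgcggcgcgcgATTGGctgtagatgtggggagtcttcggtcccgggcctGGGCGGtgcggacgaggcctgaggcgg
Sun2, chr15:79742487-79742786, minus strand: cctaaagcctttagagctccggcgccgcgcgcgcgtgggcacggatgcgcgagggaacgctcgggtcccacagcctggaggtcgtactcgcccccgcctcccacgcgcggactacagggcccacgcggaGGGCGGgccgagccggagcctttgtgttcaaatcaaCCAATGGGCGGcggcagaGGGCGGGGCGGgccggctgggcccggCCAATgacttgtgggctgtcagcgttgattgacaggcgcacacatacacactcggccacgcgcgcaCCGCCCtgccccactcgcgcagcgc

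The Lmna window shown, whose start lies inside the gene span of the annotation given below, holds 1 AP-1 motif, whose first base lies at position 40 after the start, and 1 GC box at -52, with no CCAAT box. The window of the other Lmna start (chr3:88493263-88493562) holds a CCAAT box at -131 and neither of the other motifs. The AP-1 letters occur in 5.2% of the 32851 promoter windows of the table. The Sun1 window shown has CCAAT boxes at -97 and -15 and 4 GC boxes, that of the other Sun1 start (chr5:139214908-139215207) has a CCAAT box at -209 and no GC box, and the Sun2 window has CCAAT boxes at -85 and -41 and 5 GC boxes. Of all windows, 37.4% hold a CCAAT box and 35.7% a GC box. These matches describe the letters of the windows, and no binding was measured.

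Lmna (ENSMUSG00000028063, chr3:88480147-88509956, minus strand, GRCm38) had its lowest levels where the Aurora A inhibitor and PD032 were combined and its highest in 2iLif. It had 11.2, 10.9 and 10.9 CPM in PD032+ Aurka inh, 12.7, 15 and 14.2 CPM in Aurka inh and 18.3, 15.9 and 16.6 CPM in PD032 (replicates 1, 2 and 3, from 208 to 400 counts a library). It had 33.4, 33.1 and 33.1 CPM in FGF2/Activin and 116, 114 and 116 CPM in 2iLif, from 510 to 1787 counts. In this order of groups, each group's highest library lay below the next group's lowest, so no neighbouring groups overlapped. The mean was 11.0 ± 0.186 CPM in PD032+ Aurka inh and 115 ± 1.33 CPM in 2iLif (SD, n = 3 each), a 10.5-fold span. The counts are of the whole gene and do not separate lamin A from lamin C. In bulk RNA, fewer cells that make a transcript and less of it per cell cannot be told apart.

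Against 2iLif, Lmna had a log2 fold change of -3.39 in PD032+ Aurka inh, -3.05 in Aurka inh and -2.77 in PD032. Of the 15223 genes, 0.716%, 1.58% and 1.92% had a lower log2 fold change than Lmna in these 3 comparisons, in the same order. These contrasts chose the gene, lie across the file-name styles and share the 2iLif libraries, so the values only describe them. The summed ES cell markers were also higher in 2iLif than in every other group. Single markers went both ways: of the 10, 7 fell and 2 rose in FGF2/Activin against 2iLif (65.9% of all genes called). Klf4 averaged 3.79 ± 0.167 CPM in FGF2/Activin and 337 ± 8.8 CPM in 2iLif (SD, n = 3 each). Utf1 averaged 576 ± 15.8 CPM and 154 ± 6.79 CPM in the same order. The part of these markers in the Lmna values was not tested.

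The remaining comparisons of Lmna were not those of the rule, although they reuse the same libraries. In FGF2/Activin, Lmna fell 3.48-fold against 2iLif (log2 fold change -1.80 ± 0.062 SE, adjusted p = 5.9e-13, edgeR quasi-likelihood test), and 5.43% of the genes tested had a lower value. The combination lay below each of its single agents: -0.63 ± 0.071 against PD032 (edgeR adjusted p = 2.6e-06) and -0.34 ± 0.073 against Aurka inh (edgeR adjusted p = 0.0017). PD032 was higher than Aurka inh by 0.28 ± 0.070 on the log2 scale (edgeR adjusted p = 0.0036), a difference that did not pass when only those 6 libraries were fitted (log2 0.25, edgeR adjusted p = 0.11). Against FGF2/Activin, across the file-name styles, the log2 fold change was -1.60 in PD032+ Aurka inh (adjusted p = 1.3e-11), -1.25 in Aurka inh (4.7e-10) and -0.97 in PD032 (5.6e-09).

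**Figure D1:**
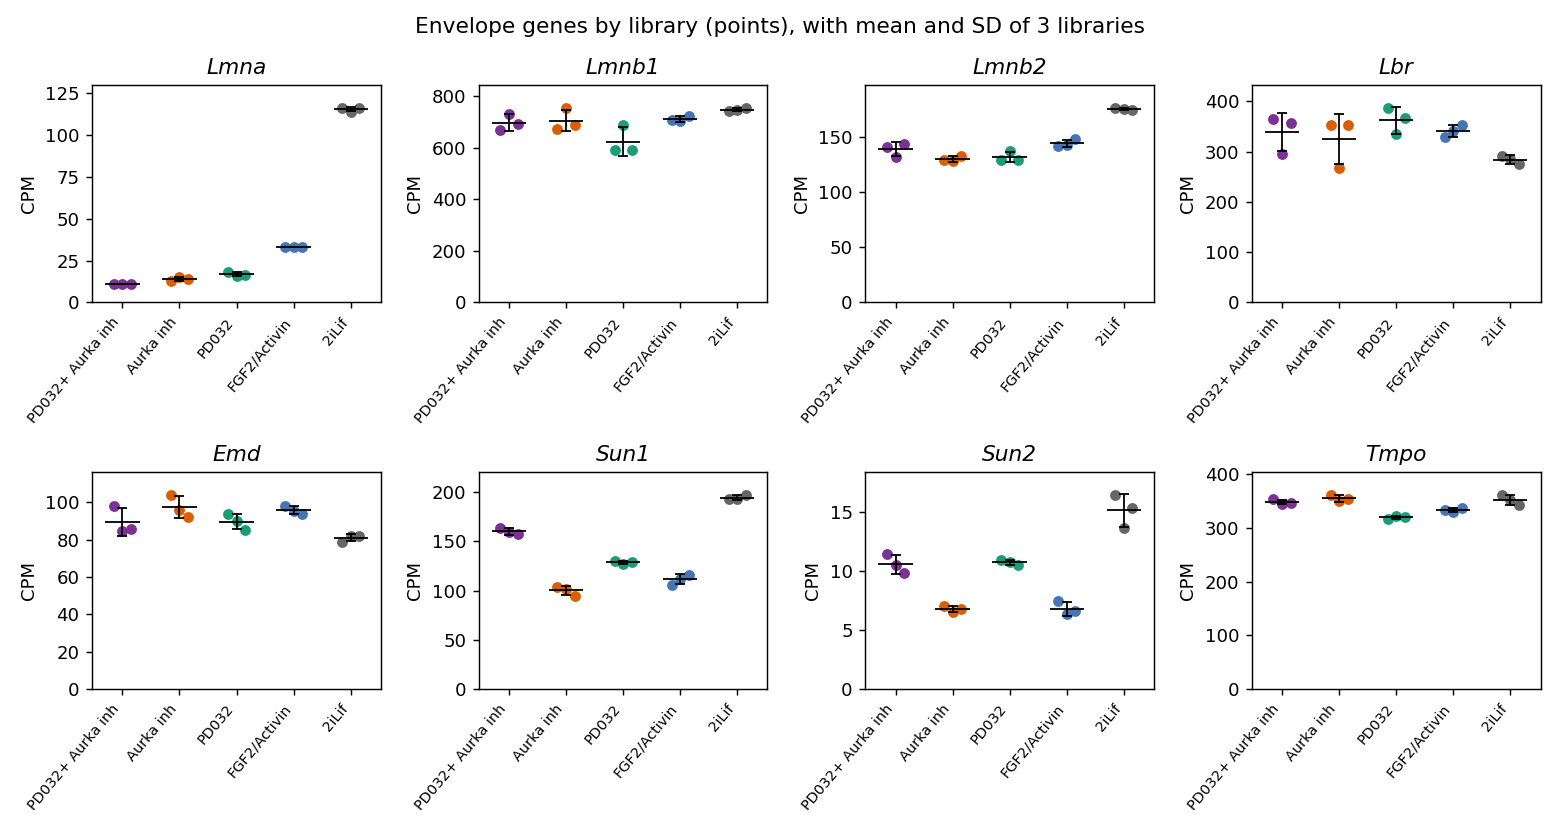
CPM of each of the 8 envelope genes (vertical axes, from 0, with a scale of their own per gene) in the 15 libraries (points) by culture group, with the group mean and SD as black bars. Lmna lies between 10.9 and 18.3 CPM in the 9 inhibitor libraries, near 33 CPM in FGF2/Activin and at 114 to 116 CPM in 2iLif, whereas Tmpo stays between 316 and 361 CPM in all 15.

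The B-type lamins moved far less. Lmnb1, which encodes lamin B1 (ENSMUSG00000024590, chromosome 18, 56707813 to 56753424, plus strand), had 668, 732 and 690 CPM in PD032+ Aurka inh, 674, 752 and 688 CPM in Aurka inh and 590, 688 and 590 CPM in PD032. It had 708, 703 and 724 CPM in FGF2/Activin and 744, 747 and 753 CPM in 2iLif. Replicate 2 was the highest of the 3 in each inhibitor group, and the highest group mean was 1.20 times the lowest. The 2iLif libraries lay above all those of PD032+ Aurka inh, PD032 and FGF2/Activin, and 2 of them lay below the highest Aurka inh library.

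Lmnb1 in FGF2/Activin was at a log2 fold change of -0.07 against 2iLif (edgeR adjusted p = 0.31). Lmnb1 passed there with only the 2 groups in the fit (-0.067, edgeR adjusted p = 0.038). It was higher in PD032+ Aurka inh than in PD032 (0.16 ± 0.060 SE, edgeR adjusted p = 0.039) and lower in PD032 than in Aurka inh (-0.18 ± 0.060, 0.024) and than in FGF2/Activin (-0.19 ± 0.060, 0.012). With replicate number as a block all 3 passed (edgeR adjusted p = 2.0e-04, 2.9e-05 and 0.0024, in that order). Without the block each was lost when some single libraries were left out. The first did not pass without PD032 replicate 1 (edgeR adjusted p = 0.16), PD032 replicate 3 (0.17), PD032+ Aurka inh replicate 2 (0.14) or PD032+ Aurka inh replicate 3 (0.07). The second did not pass without Aurka inh replicate 2 (0.11), PD032 replicate 1 (0.11) or PD032 replicate 3 (0.12), nor the third without PD032 replicate 1 (0.061) or PD032 replicate 3 (0.066). The first was also lost with library size alone (edgeR adjusted p = 0.092) and with only the 2 groups in the fit (0.1). The second was also lost with only the 2 groups in the fit (edgeR adjusted p = 0.07).

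Lmnb2, which encodes lamin B2 (ENSMUSG00000062075, chr10:80901203-80918245, minus strand), had 141, 132 and 144 CPM in PD032+ Aurka inh, 129, 128 and 133 CPM in Aurka inh and 129, 137 and 129 CPM in PD032. It had 142, 143 and 148 CPM in FGF2/Activin and 176, 175 and 174 CPM in 2iLif. All 12 other libraries lay below the 3 of 2iLif. Lmnb2 fell in FGF2/Activin against 2iLif by 0.28 on the log2 scale (SE 0.045, edgeR adjusted p = 3.5e-05), and did not pass between any of the inhibitor groups (edgeR adjusted p = 0.18 for PD032+ Aurka inh against PD032, 0.12 for PD032+ Aurka inh against Aurka inh and 0.76 for PD032 against Aurka inh). Without PD032+ Aurka inh replicate 2 the value for PD032+ Aurka inh against Aurka inh passed (log2 0.13, edgeR adjusted p = 0.046). It was lower than in FGF2/Activin in Aurka inh (-0.15, 0.011) and in PD032 (-0.13, 0.020). The last of these did not pass without FGF2/Activin replicate 3 (edgeR adjusted p = 0.078), PD032 replicate 1 (0.075) or PD032 replicate 3 (0.079), nor with library size alone (0.074) or no filter (0.22). The Aurka inh call was lost with no filter (edgeR adjusted p = 0.097) and with only the 2 groups in the fit (0.085).

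Among the lamin transcripts, the share of Lmna spanned the widest relative range over the groups. Levels of different genes were compared as CPM per kilobase of merged exons. On that scale Lmna was 0.80% ± 0.0489 of Lmnb1 in PD032+ Aurka inh, 1.00% ± 0.0484 in Aurka inh, 1.39% ± 0.203 in PD032, 2.37% ± 0.0438 in FGF2/Activin and 7.82% ± 0.0911 in 2iLif (SD, n = 3 each). With the longest transcript as the length, these ratios were 1.14%, 1.43%, 1.97%, 3.36% and 11.1%, in the same order of groups. Of the 3 lamins together, Lmna made up 0.698% in PD032+ Aurka inh, 0.883% in Aurka inh, 1.20% in PD032, 2.03% in FGF2/Activin and 6.31% in 2iLif. Lmnb1 was the most abundant lamin in every group, at 80.6% to 87.9%.

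**Figure D2:**
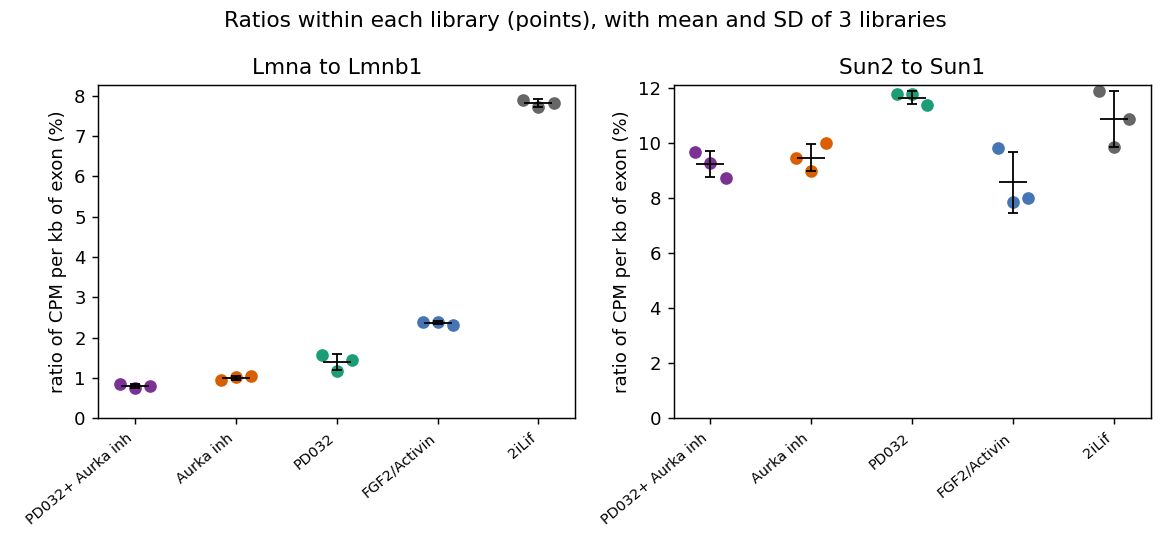
Ratio of 2 genes' CPM per kilobase of merged exons, in percent, within each library (points), by culture group with the mean and SD of 3 libraries. Lmna to Lmnb1 (left) runs between 0.752% and 1.57% in the 9 inhibitor libraries and is 7.72% to 7.91% in 2iLif; Sun2 to Sun1 (right) stays between 7.88% and 11.9%.

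The SUN-domain genes followed another order of groups than Lmna. Sun1 (ENSMUSG00000036817, chr5:139200637-139249840, plus strand) had 164, 159 and 157 CPM in PD032+ Aurka inh, 104, 102 and 94.6 CPM in Aurka inh and 130, 127 and 129 CPM in PD032. It had 106, 112 and 116 CPM in FGF2/Activin and 193, 193 and 197 CPM in 2iLif. The combination lay above both single agents without overlap, and Aurka inh had the lowest mean, its highest library just below the lowest of FGF2/Activin.

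Sun2 (ENSMUSG00000042524, chr15:79724070-79742536, minus strand) was the scarcer of the pair in every group. It had 11.4, 10.5 and 9.78 CPM in PD032+ Aurka inh, 7.04, 6.54 and 6.76 CPM in Aurka inh and 10.9, 10.7 and 10.5 CPM in PD032, from 104 to 247 counts a library. It had 7.46, 6.31 and 6.64 CPM in FGF2/Activin and 16.4, 13.6 and 15.3 CPM in 2iLif, from 99 to 253 counts. Aurka inh and FGF2/Activin overlapped at the low end, and PD032+ Aurka inh and PD032 overlapped above them. Per kilobase of merged exons, Sun2 was 9.24% ± 0.475 of Sun1 in PD032+ Aurka inh, 9.49% ± 0.502 in Aurka inh, 11.7% ± 0.206 in PD032, 8.58% ± 1.1 in FGF2/Activin and 10.9% ± 1.04 in 2iLif (SD, n = 3 each).

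Both SUN genes fell in FGF2/Activin against 2iLif, Sun1 by 0.80 (SE 0.048, edgeR adjusted p = 3.6e-10) and Sun2 by 1.15 (SE 0.10, 5.2e-08) on the log2 scale. Both were higher in PD032+ Aurka inh than in Aurka inh, at log2 fold changes of 0.67 ± 0.048 for Sun1 (edgeR adjusted p = 3.8e-08) and 0.64 ± 0.10 for Sun2 (1.4e-04). Both were also higher in PD032 than in Aurka inh, at 0.36 ± 0.048 for Sun1 (edgeR adjusted p = 1.4e-05) and 0.66 ± 0.10 for Sun2 (6.0e-05). Between PD032+ Aurka inh and PD032 they parted: Sun1 was higher in the combination (0.31 ± 0.047, edgeR adjusted p = 5.1e-05), whereas Sun2 was at -0.02 ± 0.096 (0.86). That these 2 log2 fold changes differ from each other was not tested.

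Against FGF2/Activin, Sun1 was higher in PD032+ Aurka inh (0.52, edgeR adjusted p = 8.2e-08) and in PD032 (0.21, 0.0015) and lower in Aurka inh (-0.15, 0.013). The last did not pass without Aurka inh replicate 3 (edgeR adjusted p = 0.072) or FGF2/Activin replicate 3 (0.065), with no filter (0.085) or with only the 2 groups in the fit (0.14). Sun2 was higher than in FGF2/Activin in PD032+ Aurka inh (0.63, edgeR adjusted p = 5.1e-05) and PD032 (0.66, 4.9e-05), and in Aurka inh its difference did not pass (0.99). Against 2iLif, described only, the log2 fold change of Sun1 was -0.28 in PD032+ Aurka inh, -0.96 in Aurka inh and -0.59 in PD032, and that of Sun2 was -0.52, -1.15 and -0.49 in the same order. Annotated antisense genes overlap both SUN genes, and the strand setting of the counting is not given. They had at most 3 counts in a library (4930520M14Rik over Sun1) and 0 counts in all libraries (Gm16575 over Sun2).

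**Figure D3:**
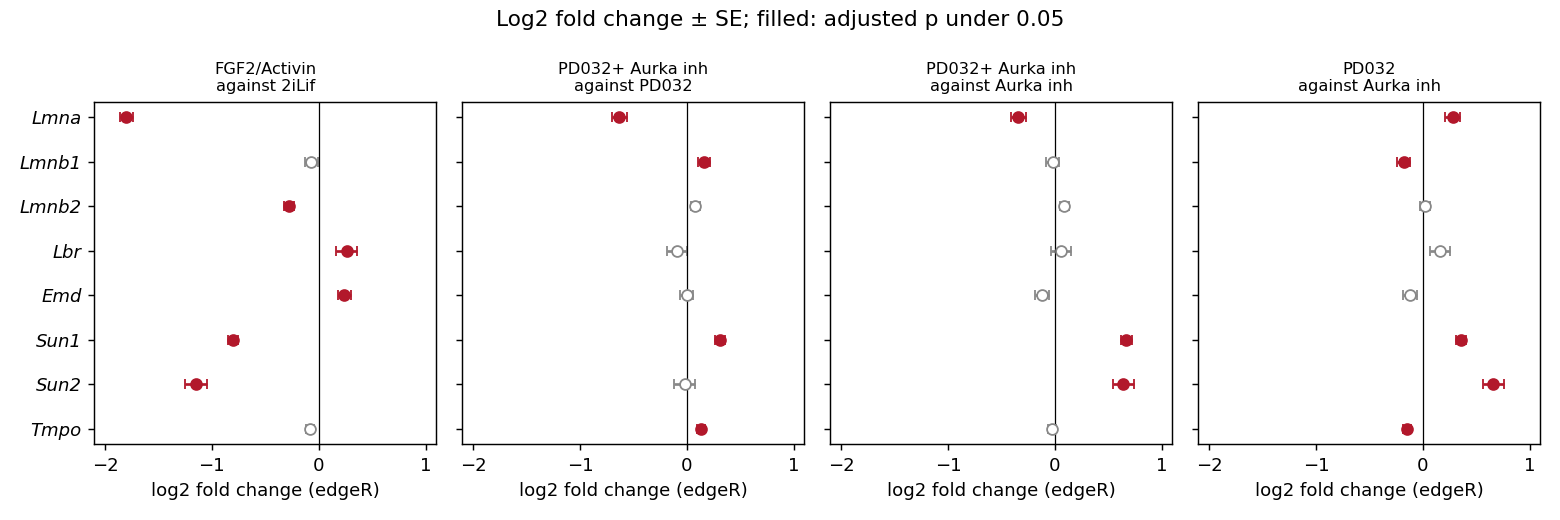
Log2 fold change (horizontal axes) of each envelope gene in the 4 comparisons within a file-name style, with the SE as bars; filled points passed an adjusted p under 0.05 in edgeR's quasi-likelihood test. Sun1 and Sun2 lie right of 0 in both comparisons against Aurka inh, and Lmna lies left of 0 in FGF2/Activin against 2iLif and in both comparisons of the combination.

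Of the inner membrane proteins, Lbr and Emd had higher means in the other 4 groups than in 2iLif, unlike the lamins. Lbr, the lamin B receptor, which tethers heterochromatin and also carries a sterol reductase domain (ENSMUSG00000004880, chr1:181815335-181843046, minus strand), had 365, 296 and 357 CPM in PD032+ Aurka inh, 353, 268 and 353 CPM in Aurka inh and 386, 334 and 366 CPM in PD032. It had 328, 341 and 353 CPM in FGF2/Activin and 292, 285 and 275 CPM in 2iLif. Replicate 2 was the lowest of the 3 in each inhibitor group, and the 2iLif libraries lay below all those of PD032+ Aurka inh, PD032 and FGF2/Activin and within the range of Aurka inh. Lbr rose in FGF2/Activin against 2iLif (log2 0.26 ± 0.096 SE, edgeR adjusted p = 0.024). This call did not pass without 2iLif replicate 1 (edgeR adjusted p = 0.062), 2iLif replicate 2 (0.085), 2iLif replicate 3 (0.11), FGF2/Activin replicate 2 (0.053) or FGF2/Activin replicate 3 (0.077). It passed under the other alternatives. Among these was replicate number as a block over the libraries of these 2 groups alone (log2 0.27, edgeR adjusted p = 9.6e-08). That fit also took the spread without the more variable inhibitor libraries, and same-numbered libraries of these 2 groups did not deviate together. Whether its smaller p-value came from the changed spread was not tested.

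Among the inhibitor groups the Lbr differences did not pass in the main fit (edgeR adjusted p = 0.46 for PD032+ Aurka inh against PD032, 0.65 for PD032+ Aurka inh against Aurka inh and 0.19 for PD032 against Aurka inh). With no filter on low counts, that of PD032 against Aurka inh passed (log2 0.17, edgeR adjusted p = 0.023). With replicate number as a block in a fit over the 9 inhibitor libraries, Lbr was lower in PD032+ Aurka inh than in PD032 (log2 -0.10, edgeR adjusted p = 0.029) and higher in PD032 than in Aurka inh (0.15, 0.0023).

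Emd encodes emerin, a LEM-domain protein that binds lamins and the chromatin protein BAF (ENSMUSG00000001964, chrX:74254687-74261548, plus strand). It had 97.9, 84.7 and 85.9 CPM in PD032+ Aurka inh, 104, 96.1 and 92.3 CPM in Aurka inh and 93.8, 90.0 and 85.5 CPM in PD032. It had 98.3, 95.6 and 93.7 CPM in FGF2/Activin and 78.8, 82.2 and 82.1 CPM in 2iLif. All 12 other libraries lay above the 3 of 2iLif, and the other 4 groups overlapped one another. Emd rose in FGF2/Activin against 2iLif (log2 0.24 ± 0.063 SE, edgeR adjusted p = 0.0029). It did not pass for PD032+ Aurka inh against Aurka inh (-0.12, edgeR adjusted p = 0.14) or PD032 against Aurka inh (-0.12, 0.13), and with the replicate block both passed (-0.14, 0.0068, and -0.13, 0.0094). Without PD032+ Aurka inh replicate 1 the unblocked value against Aurka inh also passed (-0.21, edgeR adjusted p = 0.013).

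Tmpo, which encodes the LAP2 proteins, of which some forms span the inner membrane and others lie in the nuclear interior (ENSMUSG00000019961, chr10:91147571-91181315, minus strand), was the steadiest of the 8. It had 353, 345 and 347 CPM in PD032+ Aurka inh, 361, 349 and 354 CPM in Aurka inh, 316, 322 and 320 CPM in PD032, 333, 329 and 336 CPM in FGF2/Activin and 361, 351 and 342 CPM in 2iLif. PD032 lay below every other group without overlap, and the highest group mean was 1.11 times the lowest. Tmpo was lower in PD032 than in Aurka inh (log2 -0.15 ± 0.038 SE, edgeR adjusted p = 0.0038) and higher in PD032+ Aurka inh than in PD032 (0.13 ± 0.038, 0.013). The first call was lost with no filter on low counts (edgeR adjusted p = 0.082), and the second with library size alone (0.10), no filter (0.12) or only those 2 groups in the fit (0.063). In FGF2/Activin against 2iLif it did not pass (-0.08, edgeR adjusted p = 0.08). It passed without 2iLif replicate 2 (edgeR adjusted p = 0.035), without 2iLif replicate 3 (0.014) or with only the 2 groups in the fit (0.04). Against FGF2/Activin it was higher in Aurka inh (0.09, edgeR adjusted p = 0.048), a call lost without any 1 of those 6 libraries (0.052 to 0.15) and with no filter (0.25).

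Overlapping genes can share reads with 3 of these members. Lbr overlaps Dnah14 on the other strand, with 7 to 34 counts a library, and the rRNA gene Gm26004 on its own strand, with 0 to 2. Tmpo overlaps the long noncoding RNA gene Gm26765, with 3 to 15. The pseudogene Gm14686, which overlaps Emd on the same strand, had 0 counts in all libraries. No annotated gene overlaps Lmna, Lmnb1 or Lmnb2.

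Counted over the set, 2 of the 8 genes rose and 4 fell in FGF2/Activin against 2iLif, where 65.9% of all genes tested were called. Of the 8, 3 were higher and 1 lower in PD032+ Aurka inh against PD032, with 43.7% of all genes called. For PD032+ Aurka inh against Aurka inh, 2 were higher and 1 lower, with 34.9% of all genes called. In PD032 against Aurka inh, 3 were higher and 2 lower, with 45.5% of all genes called. Against FGF2/Activin, 2 were higher and 1 lower in PD032+ Aurka inh (66.9% of all genes called), 1 was higher and 3 lower in Aurka inh (55.1% called), and 2 were higher and 3 lower in PD032 (59% called). The share of the 8 genes called lay above that of all genes in some comparisons and below it in others, so the counts show nothing particular to envelope genes. In FGF2/Activin against 2iLif, 6.67% of genes were called with a log2 fold change of -1.5 or lower, and of the 8 only Lmna was among them.

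Against 2iLif, where the rule chose Lmna, the libraries of PD032+ Aurka inh did not overlap those of 2iLif for 7 of the 8 genes, 2 higher and 5 lower (56.9% of all genes did not overlap). For Aurka inh, 1 gene was higher and 4 lower without overlap (62.7% of all genes), and for PD032, 2 were higher and 6 lower (68% of all genes). Lmnb2 had log2 fold changes of -0.33 in PD032+ Aurka inh, -0.43 in Aurka inh and -0.41 in PD032, Lbr of 0.26, 0.19 and 0.35, and Emd of 0.14, 0.27 and 0.15, in the same order.

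Of 9 further genes of the LINC complex, the nesprin and SUN bridge across the envelope, and of torsin partners, 1 rose and 3 fell in FGF2/Activin against 2iLif (65.9% of all genes called). The nesprin gene Syne2, whose protein binds SUN proteins across the envelope, averaged 37.2 ± 1.93 CPM in FGF2/Activin and 102 ± 13.9 CPM in 2iLif (SD, n = 3 each; log2 -1.46, edgeR adjusted p = 2.0e-09). It was also higher in PD032, at 123 ± 2.37 CPM, than in Aurka inh, at 63.7 ± 6.87 CPM (log2 0.95, edgeR adjusted p = 6.1e-07), and in PD032+ Aurka inh, at 91.4 ± 8.29 CPM, than in Aurka inh (0.52, 4.9e-04). In these 3 comparisons, of which the last 2 share the Aurka inh libraries, Syne2 lay in the direction of Sun1 and Sun2. Syne4, another nesprin gene of the list, did not follow them in each. It averaged 11.1 ± 1.41 CPM in PD032+ Aurka inh, 14.2 ± 0.443 CPM in Aurka inh and 15.4 ± 0.74 CPM in PD032. In FGF2/Activin against 2iLif, Syne4 was at 0.02 (edgeR adjusted p = 0.86). Syne2 was lower in PD032+ Aurka inh than in PD032 (-0.43, edgeR adjusted p = 0.0012), where Sun1 was higher and Sun2 did not pass. Tor1aip2, which encodes the torsin activator LULL1, averaged 179 ± 9.74 CPM in PD032+ Aurka inh, 177 ± 0.949 CPM in Aurka inh and 120 ± 5.96 CPM in PD032. It was higher in PD032+ Aurka inh than in PD032 (log2 0.57, edgeR adjusted p = 9.5e-08) and lower in PD032 than in Aurka inh (-0.56, 1.3e-07). Among the 9 genes, 2 were higher and 2 lower in PD032+ Aurka inh against PD032 (43.7% of all genes called), 2 higher and 1 lower in PD032+ Aurka inh against Aurka inh (34.9%), and 2 higher and 2 lower in PD032 against Aurka inh (45.5%), so these counts lie near the shares of all genes.

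Of 10 other LEM-domain and inner membrane genes, 1 rose and 5 fell in FGF2/Activin against 2iLif (65.9% of all genes called). Nemp1, which encodes an inner membrane protein, averaged 31.4 ± 1.41 CPM in FGF2/Activin and 70.7 ± 2.77 CPM in 2iLif (SD, n = 3 each; log2 -1.17, edgeR adjusted p = 7.9e-10). Dhcr7, a sterol reductase of cholesterol synthesis related to Lbr, was the 1 that rose. It averaged 115 ± 2.81 CPM in FGF2/Activin and 81.8 ± 4.81 CPM in 2iLif (0.50, edgeR adjusted p = 3.5e-05). Dhcr7 was lower in PD032+ Aurka inh, at 84.8 ± 9.55 CPM, than in PD032, at 128 ± 7.56 CPM (-0.59, edgeR adjusted p = 1.3e-05). In this list 5 genes were higher and 0 lower in PD032 against Aurka inh (45.5% of all genes called), among them Nrm, which encodes nurim, at 31.6 ± 1.01 CPM in PD032 and 19.4 ± 0.509 CPM in Aurka inh (0.70, edgeR adjusted p = 4.5e-06). In PD032+ Aurka inh, 4 were higher and 0 lower against Aurka inh (34.9% of all genes called), and 0 higher and 2 lower against PD032 (43.7%).

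Of the 5 lamin processing enzymes, which farnesylate and trim prelamins, 1 rose and 2 fell in FGF2/Activin against 2iLif, near the 65.9% of all genes called. Fntb, the beta subunit of the farnesyltransferase, averaged 59.2 ± 1.78 CPM in FGF2/Activin and 136 ± 5.74 CPM in 2iLif (SD, n = 3 each; log2 -1.20, edgeR adjusted p = 3.2e-10). Zmpste24, the protease that removes the farnesylated end of prelamin A, averaged 57.2 ± 0.528 CPM in FGF2/Activin and 46.1 ± 1.35 CPM in 2iLif (0.31, edgeR adjusted p = 3.0e-05), so it rose where Lmna fell. Fntb was higher in PD032+ Aurka inh, at 106 ± 2.77 CPM, than in Aurka inh, at 81.7 ± 9.17 CPM (0.38, edgeR adjusted p = 4.3e-04), and than in PD032, at 86.0 ± 4.28 CPM (0.31, 0.0017).

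Of 29 nucleoporins, the proteins of the nuclear pore, 8 rose and 6 fell in FGF2/Activin against 2iLif (65.9% of all genes called). In PD032 against Aurka inh 1 was higher and 15 lower (45.5% of all genes called; median log2 -0.15, against 0.022 over all genes), and in PD032+ Aurka inh against PD032 8 were higher and 2 lower (43.7% of all genes called; median 0.10, against 0.010). Nup210, a membrane nucleoporin, averaged 122 ± 8.47 CPM in PD032+ Aurka inh, 97.6 ± 8.76 CPM in Aurka inh and 77.0 ± 7.25 CPM in PD032 (SD, n = 3 each). It was higher in the combination than in PD032 (log2 0.67, edgeR adjusted p = 2.3e-06) and than in Aurka inh (0.33, 0.0026). Against Aurka inh, Nup210 was the only 1 of the 29 nucleoporins called higher in the combination, and 4 were lower. In that comparison 34.9% of all genes were called, and the median log2 fold change of the nucleoporins was -0.05, against 0.006 over all genes. In FGF2/Activin, Nup210 averaged 106 ± 4.04 CPM and in 2iLif 189 ± 5.27 CPM (-0.83, edgeR adjusted p = 5.7e-08).

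The genes whose profiles over the 15 libraries were most like that of Lmna included Crybg2, Arhgef10l, Pim3 and Rcn1. Likeness was the root mean square difference of log2 CPM, centred per gene, among 8687 genes, and it was 0.407 for Crybg2 and 0.552 for Rcn1. Crybg2 averaged 6.62 ± 0.832 CPM in PD032+ Aurka inh, 8.06 ± 0.912 in Aurka inh, 8.72 ± 1.34 in PD032, 14.9 ± 1.23 in FGF2/Activin and 32.8 ± 0.418 in 2iLif (SD, n = 3 each), which is the order of groups of Lmna. Arhgef10l (4.63 ± 1.27 CPM), Pim3 (32.2 ± 2.79) and Rcn1 (39.6 ± 2.87) instead had their lowest means in Aurka inh. For Sun2 the closest genes were Rab5b, Flii, Sipa1l1, Brwd1 and Bcas3, at 0.117 to 0.137. Rab5b, a small GTPase of early endosomes, averaged 38.5 ± 2.37 CPM in PD032+ Aurka inh, 24.6 ± 1.41 in Aurka inh, 39.1 ± 1.59 in PD032, 24.5 ± 0.917 in FGF2/Activin and 63.7 ± 1.56 in 2iLif.

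**Figure D4:**
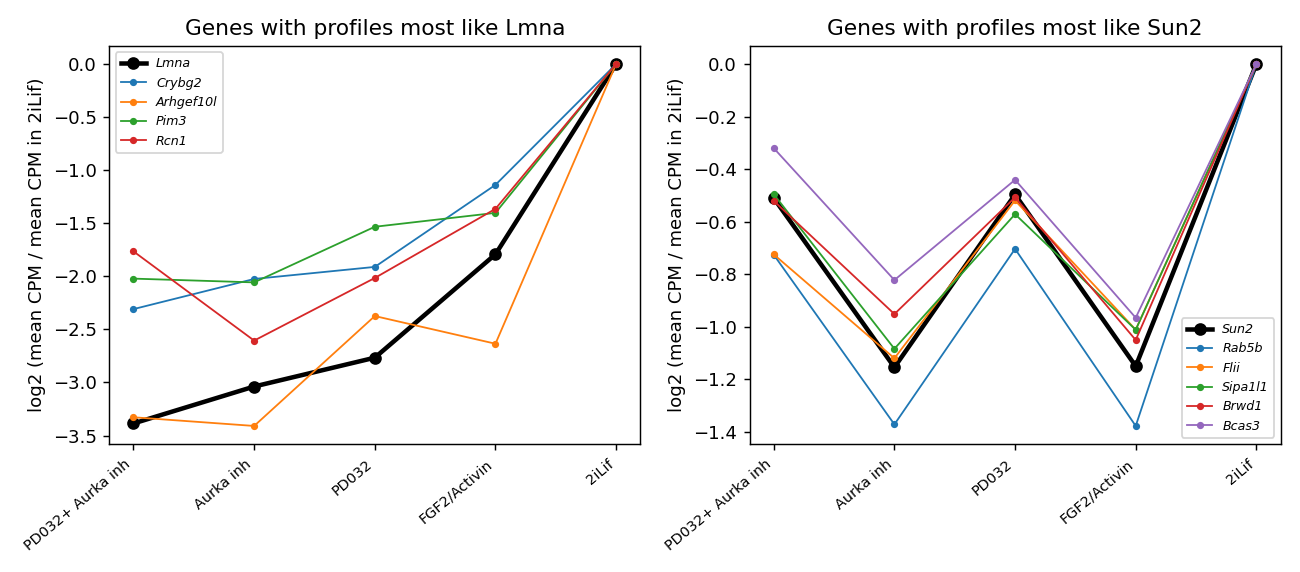
Log2 ratio of each group's mean CPM to the 2iLif mean for Lmna (left) and Sun2 (right), in black, with 4 (left) and 5 (right) of the genes with the smallest root mean square difference from each; lines join the values of 1 gene. Lmna is lowest in PD032+ Aurka inh and highest in 2iLif, whereas Sun2 is lowest in Aurka inh and FGF2/Activin.

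Markers of other cell types were low beside those of ES cells. The summed levels of 7 fibroblast markers, a cell type rich in lamin A and C, were 5.22 to 7.28 CPM in PD032+ Aurka inh, 12.9 to 20.6 in Aurka inh, 10.8 to 14.3 in PD032, 21.3 to 22.9 in FGF2/Activin and 4.29 to 5.14 in 2iLif. Lum was at 0 in 4 of the 5 groups, Dcn in PD032+ Aurka inh and 2iLif, and Col3a1 in 2iLif. Dcn averaged 0.0325 CPM in Aurka inh, 0.113 in PD032 and 4.55 ± 0.701 (SD) in FGF2/Activin. It was higher in FGF2/Activin than in 2iLif (edgeR adjusted p = 1.7e-08). Thy1 made up most of the sum in the inhibitor groups and FGF2/Activin. Pdgfrb averaged 0.857 CPM in PD032+ Aurka inh, 0.868 in Aurka inh, 1.43 in PD032, 2.38 in FGF2/Activin and 2.09 in 2iLif, and Col1a1 and Col1a2 were below 1 CPM in every group but for Col1a2 in FGF2/Activin, at 2.08. The 5 neuroectoderm markers summed to 21.8 to 32.2 CPM in PD032+ Aurka inh, 34.6 to 60.0 in Aurka inh, 86.5 to 107 in PD032, 61.9 to 66.7 in FGF2/Activin and 8.70 to 11.1 in 2iLif. The 7 primitive endoderm markers summed to 1.52 to 7.72 CPM over the 15 libraries, the 7 mesoderm markers to 6.90 to 22.6 and the 5 trophoblast markers to 6.09 to 14.9. Their part in the values of the envelope genes was not tested.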

How the data were processed

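RNA was poly(A)-selected and made into directional libraries, per the labels' protocols. Per the submitters' processing notes STAR, DESeq2 and mm10 were used; the sources used here give no versions, counting tool, annotation or strand setting. The authors deposited whole-number counts per Ensembl gene, the values analysed here. They also deposited a log2 table of normalized values, used here only as a check: its group differences lay a median of 0.02 and at most 0.43 from the fitted log2 fold changes over 80 pairs of gene and comparison, the largest gap being that of Lmna. Deposited differences of Sun2 were also smaller: -0.82 against -1.15 fitted in FGF2/Activin against 2iLif, and 0.43 against 0.66 in PD032 against Aurka inh. For Lmna in PD032+ Aurka inh against PD032 they were -0.47 against -0.63. Of 49585 identifiers, 49326 matched GENCODE M21 (GRCm38), whose coordinates are given.

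Counts were fitted in edgeR 4.0.16 (R 4.3.3, limma 3.58.1; script tested on simulated data) with filterByExpr, TMM factors (0.9716 to 1.033) and glmQLFit over all 15 libraries, with 1 coefficient for each group and 5.73 prior degrees of freedom. Each glmQLFTest was adjusted by Benjamini-Hochberg over 15223 genes, with a threshold of 0.05. SE is the log2 fold change divided by the root of F. CPM uses TMM-scaled library sizes, and all values cover 3 replicates a group. Depth gave Sun2 at least 99 and Lmna at least 208 counts a library. The chi-square per degree of freedom between replicates was at least 1.24, so no library was a copy of another of its group. It was 1.24 to 1.57 in FGF2/Activin, 1.34 to 6.95 in 2iLif and 2.59 to 19.2 in the inhibitor groups. Whether the replicates were separate cultures was not tested.

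Same-numbered inhibitor libraries deviated together (correlation of deviations from group means 0.17 to 0.483 over the 3 comparisons), so the numbers may pair them. Same-numbered libraries of FGF2/Activin and 2iLif did not deviate together (-0.026 to 0.00713). This possible pairing comes from the data, not from a label. The fit without the block is the main one, so its p-values take no account of a pairing. Alternatives were DESeq2 1.42.0 size factors, its Wald test, library size alone, no filter, fitting only the groups compared, the block, and leaving out each library. The envelope genes and further lists were chosen with earlier results of these data known. Of each further list, the named genes are among the 2 with the largest log2 fold change called in a comparison at a mean of 10 CPM or more in the higher group, and of the 5 genes most like Lmna and the 5 most like Sun2, 1 is not reported here.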

Additional observations from a re-analysis of the deposited data

How the results depend on the processing

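The calls of Lmna and of Sun2 held under all 12 alternatives of each comparison, except that of Lmna in PD032 against Aurka inh with only the 2 groups in the fit. Of 672 alternative values of the 8 genes with a test, 588 kept direction and side of the threshold, 40 no longer passed, 13 newly passed and 31 changed sign. No scaling moved the median of all genes by more than 0.073 (log2). The number of the 8 genes called moved in PD032+ Aurka inh against PD032 to 2 with library size alone and to 2 with only the 2 groups in the fit. It moved in Aurka inh against FGF2/Activin to 1 with no filter and 2 with only the 2 groups, and in PD032 against Aurka inh to 3 with only the 2 groups. With only the 2 groups fitted, 3480 genes were called in PD032+ Aurka inh against Aurka inh, against 5311. Leaving out 1 library gave 2 to 3 genes of the set in Aurka inh against FGF2/Activin (2 without FGF2/Activin replicate 3 or Aurka inh replicate 3) and 3 to 5 in PD032 against FGF2/Activin (3 without PD032 replicate 1 or 3). The replicate block made the Lbr and Emd differences given above pass, for Lbr log2 -0.10 in PD032+ Aurka inh against PD032, and changed no other call of the set. The Lmna to Lmnb1 ratio depends on the length used (11.1% in 2iLif with the longest transcript). The causes were not tested.

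The sign changes were all in differences near 0 that did not pass (log2 values follow). With DESeq2 size factors, Emd in PD032+ Aurka inh against PD032 was 0.0046 and Lmnb2 in PD032 against Aurka inh -0.0076; with DESeq2's Wald test they were 0.0048 and -0.0083, and with only the 2 groups fitted 0.0056 and -0.015. Sun2 in Aurka inh against FGF2/Activin was 0.0093 with library size alone, 0.0048 with no filter, 0.00093 with DESeq2 and 0.039 with only the 2 groups. Lbr in PD032+ Aurka inh against FGF2/Activin was 0.015 with no filter and 0.0061 with only the 2 groups, where Lmnb1 in Aurka inh against FGF2/Activin was 0.027. Leaving out 1 library gave, in Aurka inh against FGF2/Activin, ranges of -0.064 to 0.017 for Lmnb1, -0.13 to 0.051 for Lbr, -0.025 to 0.062 for Emd and -0.057 to 0.066 for Sun2. In PD032+ Aurka inh against FGF2/Activin it gave -0.067 to 0.027 for Lmnb1 and -0.041 to 0.085 for Lbr, and against Aurka inh -0.052 to 0.034 for Lmnb1 and -0.055 to 0.15 for Lbr. In PD032+ Aurka inh against PD032 it gave -0.061 to 0.034 for Emd and -0.068 to 0.031 for Sun2, and in PD032 against Aurka inh -0.011 to 0.036 for Lmnb2.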

Other observations

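Of 18 SRF and YAP target genes, which read out actin and tension signals that pass through the cytoskeleton, 15 were tested. In PD032+ Aurka inh, 10 were lower and 4 higher than in PD032 (43.7% of all genes called; median log2 -0.49, against 0.010 over all genes), and 8 were lower and 1 higher than in Aurka inh (34.9% called; median -0.32, against 0.006). Cnn2, which encodes the actin-binding protein calponin 2, averaged 17.1 ± 0.727 CPM in PD032+ Aurka inh, 38.4 ± 7.99 CPM in Aurka inh and 40.7 ± 1.66 CPM in PD032 (SD, n = 3 each). Its log2 fold change in the combination was -1.26 against PD032 (edgeR adjusted p = 1.9e-07) and -1.18 against Aurka inh (9.4e-07), 2 comparisons that share the combination's libraries. Lats2, a kinase of the Hippo pathway, averaged 10.3 ± 0.792 CPM in PD032+ Aurka inh, 23.0 ± 1.16 CPM in Aurka inh and 7.24 ± 0.943 CPM in PD032. In FGF2/Activin against 2iLif, 7 of the 15 rose and 4 fell (65.9% of all genes called), with Tpm2, a tropomyosin, at 25.6 ± 0.991 CPM in FGF2/Activin and 2.04 ± 0.0326 CPM in 2iLif (log2 3.64, edgeR adjusted p = 1.0e-09). Srf itself averaged 101 ± 1.80 CPM in FGF2/Activin and 51.1 ± 1.63 CPM in 2iLif (0.98, edgeR adjusted p = 7.3e-08).

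Of 12 genes of envelope disassembly and reassembly, 6 rose and 5 fell in FGF2/Activin against 2iLif (65.9% of all genes called). Ist1, a partner of the ESCRT-III machinery that seals the reforming envelope, averaged 50 ± 1.41 CPM in FGF2/Activin and 62.6 ± 0.288 CPM in 2iLif (SD, n = 3 each; log2 -0.33, edgeR adjusted p = 1.9e-05). Ist1 in PD032+ Aurka inh averaged 79.6 ± 2.10 CPM, higher than the 67.6 ± 1.43 CPM of PD032 (0.24, edgeR adjusted p = 5.9e-04) and the 69.4 ± 2.57 CPM of Aurka inh (0.20, 0.0032). Most of the list was not called there: in PD032+ Aurka inh, 2 of the 12 were higher and 0 lower than in PD032 (43.7% of all genes called). Against Aurka inh, 2 were higher and 1 lower (34.9% of all genes called).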
